A study of Mus musculus with 6 samples.

Results

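The Toll-like receptor genes *Tlr1* to *Tlr9* and the adaptor gene *Myd88* were examined in mouse inguinal adipose tissue (iAT), the white fat depot of the groin. These 10 genes were chosen by name from the 19831 genes of the deposited table, and all of them were listed with a value above 0. RNA sequencing compared 3 wild-type samples with 3 samples of the genotype Npffr1-KO, which lacks the neuropeptide FF receptor 1, and the comparison asks which transcripts of the depot changed when that receptor was missing. All samples were total RNA of whole iAT taken at postnatal day 6 from mice kept under specific pathogen-free conditions, with no treatment named, and the study's methods give male C57BL/6 mice of that age. The sources used here do not say how the *Npffr1* allele was made, whether it was lost in all cells, or whether a sample is 1 animal or a pool, so p-values measure only the spread between these samples, which may be technical.

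Toll-like receptors sense molecules of microbes and of damaged cells, and each receptor recognises its own kind of ligand. TLR1, TLR2, TLR4, TLR5 and TLR6 sit at the cell surface and face bacterial lipoproteins, lipopolysaccharide or flagellin, whereas TLR3, TLR7, TLR8 and TLR9 sit in endosomes and bind nucleic acids. All of them except TLR3 signal through the adaptor MyD88, which recruits IRAK kinases and leads to NF-κB activation. In adipose tissue, macrophages and other immune cells carry most of these receptors, and adipocytes respond to ligands of TLR3 and TLR4.

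The deposited table holds 1 value per genotype, not 1 per sample. The whole reads of each library were therefore worked back from these values, which give the mean of normalized read counts over the 6 libraries to 15 digits. The libraries are called wild-type a, b and c and Npffr1-KO d, e and f, and they could not be tied to the sample numbers of the labels. Reads were obtained for 9 of the 10 genes. For *Tlr5* and *Tlr6* a single combination of whole reads matched within the distance searched, and combinations with a wider spread were not tried. For the other 7 receptors several combinations matched, and the one with at least 99% of the weight was taken. The weight was set by the spread between libraries and by the ratio of the 2 genotype values. *Tlr1* had the most combinations, 3833, and its combination held 99.6% of the weight, so its reads are the least secure. The level of *Myd88* was too high for this search, and its values are the authors' genotype values, with no spread and no test.

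Across the series, the size factors of the 6 libraries lay between 0.916 and 1.04, and each library held on average 23388674 normalized counts. *Npffr1* itself had 1, 0 and 5 reads in wild-type a, b and c and 0 reads in each Npffr1-KO library, where a count of 0 allows up to 3 reads, so the targeted gene was too low to check the labels. Of the 7319 genes tested with limma, 211 passed a Benjamini-Hochberg adjusted p of 0.05, 95 higher and 116 lower in Npffr1-KO. That count was 25 without wild-type b, 60 without wild-type c, 113 without Npffr1-KO d, 341 without Npffr1-KO e and 109 without Npffr1-KO f. The marker genes of adipocytes were high in the tissue, as were those of B and T cells: in the authors' wild-type value *Adipoq*, the adipocyte hormone adiponectin, was 37027, *Cd79a*, a part of the B cell receptor, was 3383, and *Lck*, a kinase of T cells, was 1675. *Xist* (1716 in wild-type and 2464 in Npffr1-KO) and Y-linked genes were listed in both genotypes. The Y-linked *Ddx3y* (1112 and 935), *Eif2s3y* (1360 and 1144), *Kdm5d* (490 and 434) and *Uty* (273 and 244) were all lower in Npffr1-KO. The study's methods give male mice, and the values of *Xist* were not reconciled with that. The sex of single libraries was not recovered. A difference in sex between the groups was not tested, and its part in any gene could not be told apart from that of genotype.

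*Tlr1* and *Tlr6* are neighbours and share part of their sequence, which bears on how reads were divided between them. In GENCODE M21 on the mouse build GRCm38, *Tlr1* lies on chromosome 5 from 64924679 to 64933563 and *Tlr6* from 64952031 to 64960097, both on the minus strand, with 18467 bases between them. Over the aligned coding sequences 72.8% of bases were identical. The likeness was uneven. In windows of 100 bases of the *Tlr1* coding sequence, between 48% and 68% of bases were identical up to base 1300. Between 97% and 100% were identical from base 1301 to base 2200. The share fell to 72% from base 2201 to base 2300 and to 62.5% in the last window, from base 2301 to base 2388. The longest run without a difference was 229 bases. It is printed here with 9 bases on either side, in the coding exon and in the sense of the transcript, with the 2 bases that differ in capitals. The *Tlr1* stretch is chr5:64925528-64925774 and the *Tlr6* stretch is chr5:64953819-64954065, both minus strand.
Tlr1: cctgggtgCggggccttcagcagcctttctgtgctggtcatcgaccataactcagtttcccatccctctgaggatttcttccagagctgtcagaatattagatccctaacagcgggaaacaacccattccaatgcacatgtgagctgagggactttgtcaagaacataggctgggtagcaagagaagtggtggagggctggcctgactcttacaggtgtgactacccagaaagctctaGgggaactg
Tlr6: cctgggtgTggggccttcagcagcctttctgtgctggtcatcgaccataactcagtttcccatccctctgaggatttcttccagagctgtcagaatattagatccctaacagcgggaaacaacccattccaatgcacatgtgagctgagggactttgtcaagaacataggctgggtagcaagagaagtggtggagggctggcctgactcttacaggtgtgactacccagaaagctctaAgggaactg
For contrast, the least alike window of 60 bases without a gap lies nearer to the start codon. It is chr5:64926346-64926405 in *Tlr1* and chr5:64954637-64954696 in *Tlr6*, on the minus strand, and 36 of its 60 bases, in capitals, differ.
Tlr1: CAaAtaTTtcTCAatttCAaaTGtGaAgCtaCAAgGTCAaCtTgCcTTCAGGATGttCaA
Tlr6: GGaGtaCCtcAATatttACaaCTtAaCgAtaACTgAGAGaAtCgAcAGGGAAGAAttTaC
Of all words of 31 bases in the transcripts of *Tlr1*, 20.02% also occurred in transcripts of another gene, and 607 of them were in *Tlr6*. The share was 16.6% for *Tlr6* and 0.559% for *Tlr4*, and no such word was found in *Tlr2*, *Tlr3*, *Tlr5*, *Tlr7*, *Tlr8*, *Tlr9* or *Myd88*. The next most alike pair, *Tlr7* and *Tlr8*, which lie side by side on chromosome X, were identical at 53.1% of aligned coding bases and shared no word of 31 bases. *Tlr2* lies on chromosome 3 from 83836272 to 83841767 (minus strand), *Tlr4* on chromosome 4 from 66827584 to 66930284 (plus strand) and *Tlr5* on chromosome 1 from 182954788 to 182976044 (plus strand). *Tlr3* lies on chromosome 8 from 45395665 to 45411080 (minus strand), *Tlr7* and *Tlr8* on chromosome X from 167304929 to 167330558 and from 167242696 to 167264329 (both minus strand), and *Tlr9* on chromosome 9 from 106222598 to 106226883 (plus strand). Because of the shared stretch, levels of *Tlr1* and *Tlr6* are uncertain as to how reads were assigned, and their sum is given beside them.

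**Figure D1:**
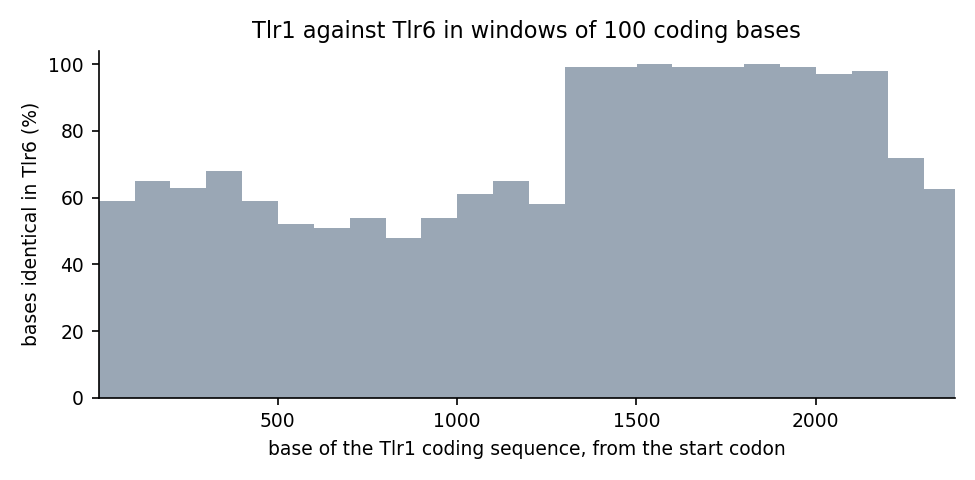
Bases of the *Tlr1* coding sequence (x axis, in bases from the start codon) that are identical in the aligned *Tlr6* coding sequence (y axis, percent), in windows of 100 bases. From base 1301 to base 2200 every window is at least 97% identical, whereas no window before it exceeds 68%.

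In wild-type iAT, *Myd88* had the highest level per gene length and *Tlr6* the lowest. Levels between genes are compared here only as normalized read counts per kilobase of the gene length listed in the table. *Myd88* stood at 659 per kilobase by the authors' wild-type value, although an exon of another gene overlaps it on the opposite strand. *Tlr1*, which forms a receptor for triacylated lipoproteins with TLR2, followed at 198 ± 12.9 (SD, n = 3) per kilobase, the highest of the 9 receptors. *Tlr3*, a receptor for double-stranded RNA, came next at 97.7 ± 5.30, and *Tlr2*, the shared partner of TLR1 and TLR6, at 81.7 ± 9.71. The wild-type libraries of *Tlr1*, *Tlr3* and *Tlr2* did not overlap with those of the next gene in the order. *Tlr9* (53.3 ± 15.3), *Tlr4* (52.5 ± 3.50) and *Tlr7* (47.6 ± 6.64) formed a middle group in which the libraries of neighbours overlapped. *Tlr5* (29.9 ± 2.64) and *Tlr8* (26.8 ± 3.81) also overlapped, below all libraries of *Tlr7*, and *Tlr6* had 17.8 ± 2.40 per kilobase.

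The place of *Tlr4* depended on its length. The table lists 7891 bases for *Tlr4*, but its longest transcript in GENCODE M21 has 4077, and with the latter the wild-type level of *Tlr4* was 101.6 per kilobase, next after *Myd88* and *Tlr1*. *Tlr8* is listed at 4473 bases against 3431 in GENCODE M21 and then lay above *Tlr5*. In Npffr1-KO the order began with *Myd88* at 632 per kilobase by the authors' value and *Tlr1* at 257 ± 18.9. *Tlr2* (92.5 ± 7.63) then stood above *Tlr3* (84.7 ± 8.67), with overlapping libraries, and *Tlr8* above *Tlr5*.

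**Figure D2:**
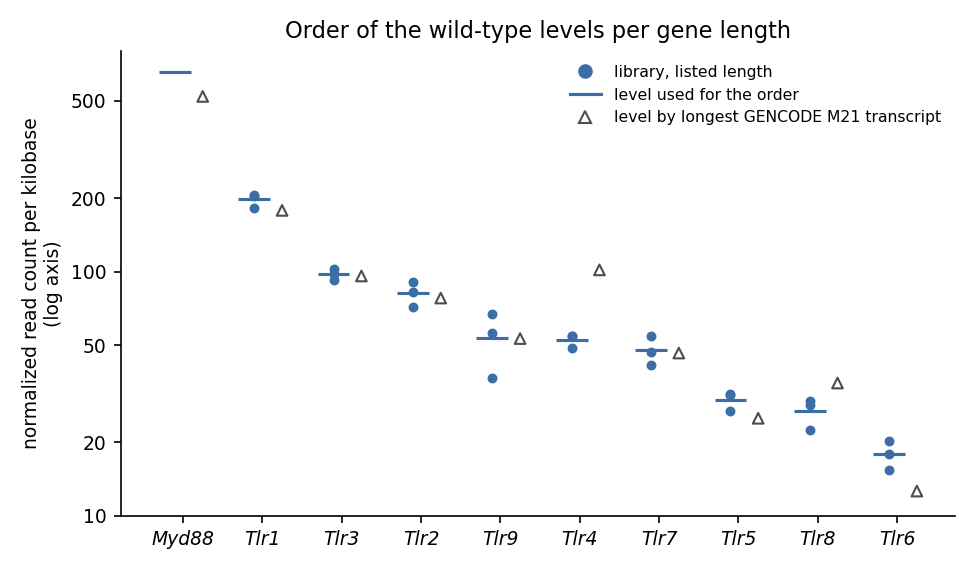
Wild-type level of each gene as normalized read count per kilobase (y axis, log scale), with genes ordered by that level (x axis). Points are the 3 wild-type libraries, lines their mean (for *Myd88* the authors' value) and triangles the level by the longest GENCODE M21 transcript; *Tlr4* rises from 52.5 to 101.6 per kilobase between the 2 lengths, and *Tlr1* leads the receptors with either.

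Among the surface receptors, *Tlr1* was higher in Npffr1-KO and was the only one of the 9 tested genes past the threshold, where 2.88% of all genes tested passed in either direction, 1.30% as higher and 1.58% as lower. Normalized read counts of *Tlr1* were 561, 498 and 557 in wild-type a, b and c and 746, 714 and 645 in Npffr1-KO d, e and f. All 3 Npffr1-KO libraries lay above all wild-type libraries. The log2 difference, taken on log2(normalized count + 1) here and in what follows, was 0.38 ± 0.094 (SE), a 1.30-fold higher level with a 95% interval of 1.14 to 1.49 (limma, adjusted p = 0.034). The call was not firm: the adjusted p was 0.054 when only genes with a mean of up to 400 were fitted beside it, 0.102 with no minimum on the mean, and 0.214, 0.105, 0.137 and 0.058 without wild-type b, wild-type c, Npffr1-KO d and Npffr1-KO e. With a search tolerance 4 times wider, its reads were not obtained. Reads were obtained for 62.1% of genes with a mean between 400 and 700, where *Tlr1* lies. The weight that chose them favoured a small spread between libraries of a genotype. It also favoured a difference close to that expected from the authors' 2 genotype values. The separation of the libraries and the p-value thus partly rest on that choice. Whether it understates the spread behind the test was not tested.

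The sum of *Tlr1* and *Tlr6* does not depend on how reads were divided between these genes. It was 607, 538 and 609 in wild-type a, b and c against 804, 766 and 691 in Npffr1-KO d, e and f, without overlap. *Tlr6* made up only between 6.64% and 8.63% of that sum. The sum thus mostly repeats the values of *Tlr1* and is no separate support for its difference. Markers of lymphocytes and macrophages were read beside *Tlr1*. All 4 T cell markers were higher in the authors' Npffr1-KO value, with a sum of 7883 against 4934 in wild-type, and so were all 4 B cell markers, with a sum of 9958 against 8386. The 8 macrophage markers summed to 21100 in Npffr1-KO and 18335 in wild-type, and 4 of them were higher. Most of that rise was *Lyz2*, at 11951 in Npffr1-KO and 9262 in wild-type. *Csf1r* (4379 and 4594) and *Mrc1* (1918 and 1947) were lower in Npffr1-KO. None of these lists had a marker at 0. The authors' values gave no spread for the T and B cell markers, and their part in the *Tlr1* result was not tested. In whole tissue, a change in the number of cells of a type and a change in RNA per cell cannot be told apart.

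*Tlr5*, the receptor for bacterial flagellin, was the other gene whose genotypes did not overlap, in the opposite direction. Its normalized read counts were 86.0, 99.9 and 101 in wild-type a, b and c and 44.3, 79.7 and 78.6 in Npffr1-KO d, e and f. Every Npffr1-KO library lay below every wild-type library, with Npffr1-KO d far below the other 2. Of the 9 genes with reads, *Tlr1* and *Tlr5* thus had libraries apart, where 22.5% of all genes tested did (10.8% higher and 11.7% lower in Npffr1-KO). The log2 difference of *Tlr5* was -0.54 ± 0.26 (SE), with a 95% interval of -1.08 to -0.0030, and it did not pass the threshold (limma, adjusted p = 0.271; the unadjusted p of this fit was 0.0489). Without Npffr1-KO d the log2 difference was -0.27 (adjusted p = 0.675).

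The other surface receptors did not pass the threshold, and their genotypes overlapped. *Tlr2* had normalized read counts of 206, 261 and 237 in wild-type a, b and c against 265, 244 and 288 in Npffr1-KO d, e and f. Only Npffr1-KO e lay within the wild-type range. The log2 difference of *Tlr2* was 0.18, with a 95% interval of -0.16 to 0.52 (adjusted p = 0.602, limma). *Tlr4*, the lipopolysaccharide receptor, had 382, 431 and 430 in wild-type and 386, 396 and 346 in Npffr1-KO. Npffr1-KO f was the lowest of the 6 libraries, and the others lay within 382 to 431. The log2 difference of *Tlr4* was -0.14 (interval -0.40 to 0.12, adjusted p = 0.593, limma), and it became 0.03 when differences were centred on genes of like length. *Tlr6*, the partner of TLR2 for diacylated lipoproteins, had 46.4, 40.1 and 52.6 in wild-type and 57.8, 52.5 and 45.8 in Npffr1-KO, the fewest reads of the 10 genes. Its log2 difference of 0.17 had a wide interval, from -0.40 to 0.73 (adjusted p = 0.807, limma), which reaches a 1.66-fold higher level, so a change of that size is not shown to be absent at this depth.

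**Figure D3:**
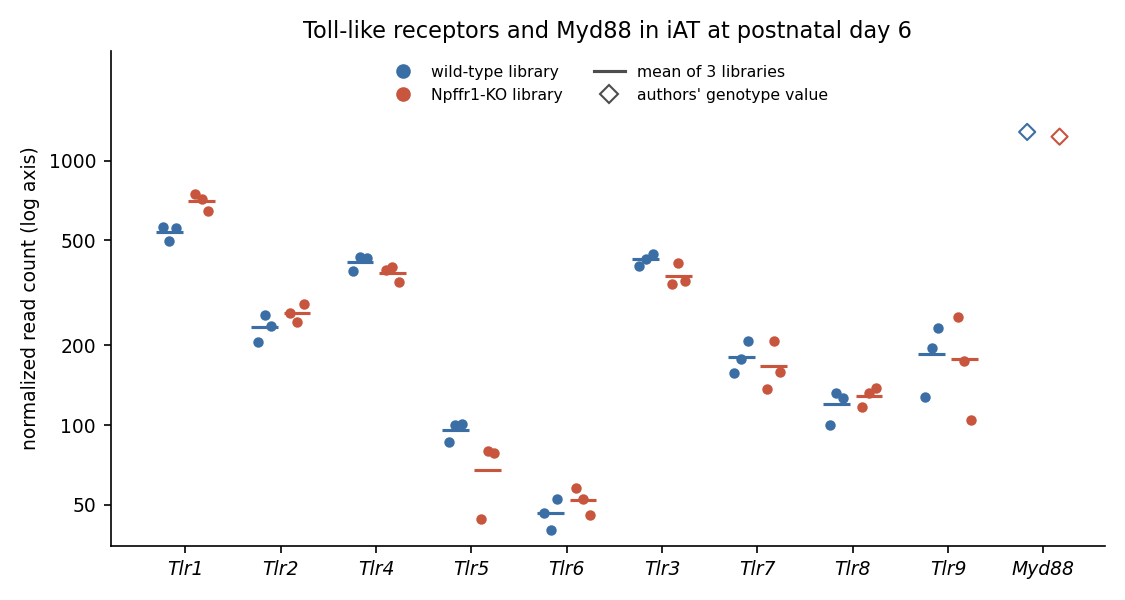
Normalized read count of each gene (y axis, log scale) in the 3 wild-type and 3 Npffr1-KO libraries (points, ordered a to c and d to f from left to right), with the mean of each genotype as a line; diamonds are the authors' genotype values of *Myd88*. The genotypes are apart for *Tlr1* (498 to 561 against 645 to 746) and *Tlr5* (86.0 to 101 against 44.3 to 79.7) and overlap for the other 7 receptors; heights are not divided by gene length.

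None of the 4 endosomal receptors passed the threshold of limma, with or without voom weights, and none had an unadjusted p under 0.05, where 2.88% and 18.3% of all genes tested did, so a count of 0 in 4 genes is no result about them as a group. *Tlr3* had normalized read counts of 399, 425 and 445 in wild-type a, b and c and 341, 410 and 349 in Npffr1-KO d, e and f. Npffr1-KO e lay within the wild-type range, and the other 2 Npffr1-KO libraries lay below it. The log2 difference of *Tlr3* was -0.21 ± 0.13 (SE; 95% interval -0.47 to 0.06, adjusted p = 0.402, limma), and -0.11 when centred on genes of like length. In GENCODE M21 an exon of *Gm45542* overlaps *Tlr3* on the opposite strand, and the sources used here do not say whether counting used the strand.

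*Tlr7*, a receptor for single-stranded RNA, and its neighbour *Tlr8* are both on chromosome X. *Tlr7* had 157, 177 and 207 normalized reads in wild-type a, b and c against 137, 208 and 158 in Npffr1-KO d, e and f. Its highest and its lowest library were thus both Npffr1-KO, and the log2 difference was -0.12 (95% interval -0.54 to 0.30, adjusted p = 0.817, limma). *Tlr8* had 100.4, 132 and 127 in wild-type and 117, 132 and 139 in Npffr1-KO. The genotypes overlapped, with a log2 difference of 0.11 (95% interval -0.32 to 0.55, adjusted p = 0.830, limma). The part of the sex of the mice in these values was not tested.

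*Tlr9*, the receptor for unmethylated CpG DNA, varied more between libraries of 1 genotype than any other of the 9 receptors. Its normalized read counts were 127, 195 and 232 in wild-type a, b and c against 255, 175 and 105 in Npffr1-KO d, e and f. The SD was 28.7% of the mean in wild-type and 42.3% in Npffr1-KO, against 5.43% to 14.2% in wild-type and 7.04% to 29.8% in Npffr1-KO for the other 8. The highest and the lowest library were both Npffr1-KO, and differed 2.44-fold. The log2 difference between genotypes was -0.10, with an interval of -0.66 to 0.46 (adjusted p = 0.893, limma). It was 0.23 without Npffr1-KO f and 0.08 without wild-type c, so its direction rested on single libraries.

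**Figure D4:**
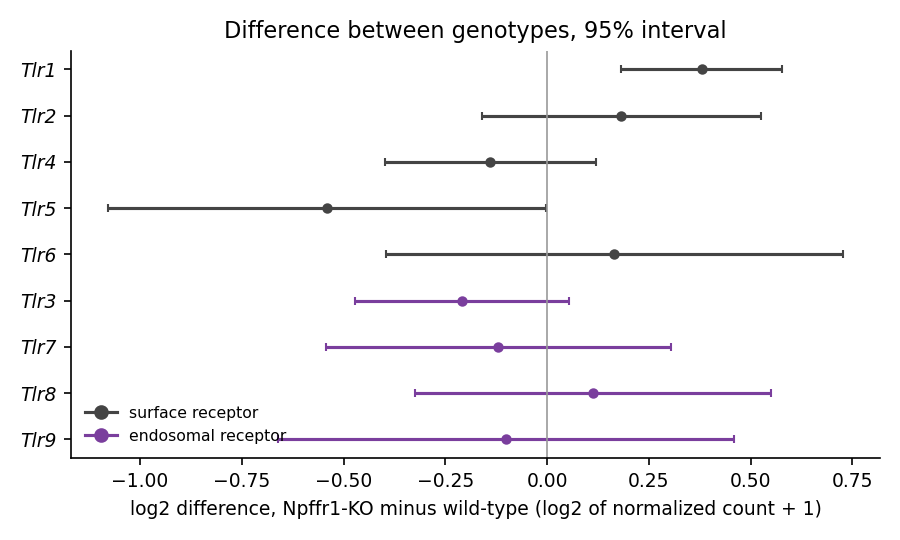
Log2 difference between Npffr1-KO and wild-type (x axis, on log2 of normalized count + 1) for the 9 receptors (y axis), with the 95% interval of the limma fit; grey marks surface and violet endosomal receptors. The intervals of *Tlr1* (0.18 to 0.58) and *Tlr5* (-1.08 to -0.0030) leave out 0, and only *Tlr1* passed the adjusted threshold.

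*Myd88*, the shared adaptor, was listed at 1283 in wild-type and 1231 in Npffr1-KO. These 2 values are drawn toward each other by the authors' model, so they understate differences, and without reads per library they carry no error. In GENCODE M21 *Myd88* lies on chromosome 9 from 119335934 to 119341411 (minus strand), and an exon of *Acaa1a* overlaps it on the opposite strand. As for *Tlr3*, whether counting used the strand is not known, so the level of *Myd88* may include reads of *Acaa1a*. Over the 9 receptors, 4 log2 differences were above 0 and 5 below, with a median of -0.10 beside -0.02 for all genes tested.

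The 3 other mouse receptors, *Tlr11*, *Tlr12* and *Tlr13*, also varied between libraries of 1 genotype. *Tlr12*, a receptor for profilin of protozoa, had 88.9, 72.4 and 106 normalized reads in wild-type a, b and c against 142, 78.7 and 48.01 in Npffr1-KO d, e and f. *Tlr13*, a receptor for bacterial ribosomal RNA, had 66.6, 57.8 and 117 in wild-type and 116, 94.9 and 66.6 in Npffr1-KO. *Tlr11*, which also recognises profilin, had 55.0, 19.6 and 39.7 in wild-type and 54.0, 37.3 and 24.0 in Npffr1-KO. None of the 3 passed the threshold (adjusted p between 0.724 and 0.959, limma), and all overlapped between genotypes. In *Tlr9*, *Tlr11*, *Tlr12* and *Tlr13*, Npffr1-KO d was the highest and Npffr1-KO f the lowest Npffr1-KO library, by 2.44, 2.25, 2.95 and 1.74-fold. The same order of d, e and f was found in 6 of all 12 receptors, *Tlr1* and *Tlr6* included, and in 20.9% of all genes tested. A ratio of d to f as large as that of *Tlr9* was found in 3.70% of genes.

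The summed level of the 4 conventional dendritic cell markers with reads, of 5 listed, lay between 794 and 947 in wild-type and between 746 and 1000 in Npffr1-KO. Over all 5, the authors' values summed to 1312 in wild-type and 1338 in Npffr1-KO, and 2 of the 5 were higher in Npffr1-KO. For plasmacytoid dendritic cells, which are rich in TLR7 and TLR9, the authors' values of all 4 markers summed to 7478 in wild-type and 7632 in Npffr1-KO, and 3 of the 4 were higher. *Tcf4*, the most abundant of them, was 5803 in wild-type and 5669 in Npffr1-KO. Both plasmacytoid markers with reads were less abundant, and these 2 summed to 210 to 280 in wild-type and 283 to 342 in Npffr1-KO, and neither passed the threshold (adjusted p = 0.337 and 0.307, limma). No marker of either list was at 0, and their part in the spread of *Tlr9* was not tested.

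**Figure D5:**
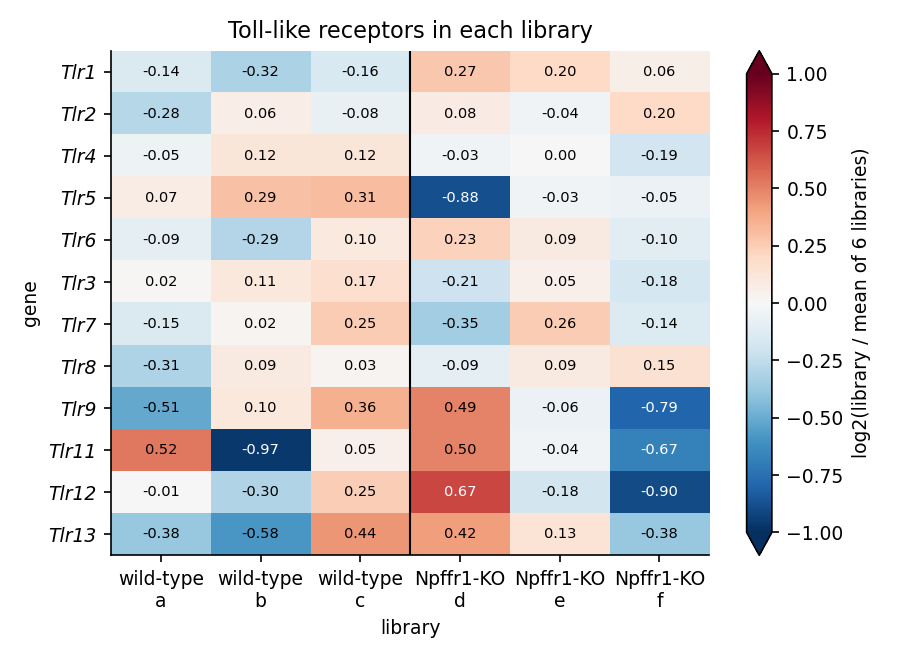
Level of the 12 Toll-like receptor genes (rows) in each of the 6 libraries (columns), as log2 of the library over the mean of the 6. *Tlr6*, *Tlr9*, *Tlr11*, *Tlr12* and *Tlr13* lie above their mean in Npffr1-KO d and below it in Npffr1-KO f. *Tlr3*, *Tlr5* and *Tlr7* lie lowest in Npffr1-KO d.

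Among the other genes of the pathway, 1 of the 24 tested passed the threshold, against 2.88% of all genes tested. Of 52 genes listed, 51 were in the table, 26 had reads and 24 reached the minimum mean of 10 normalized counts. The median of their log2 differences was -0.01 beside -0.02 for all genes tested, and 8 of the 24 had genotypes that did not overlap, 4 higher and 4 lower in Npffr1-KO, where 22.5% of all genes tested did not. The gene that passed was *Tab3*, a subunit that links TRAF6 to the kinase TAK1. Its normalized read counts were 542, 508 and 491 in wild-type and 367, 403 and 348 in Npffr1-KO, with every Npffr1-KO library below every wild-type library. The log2 difference was -0.46 ± 0.12 (SE, adjusted p = 0.034, limma). In 7 of the 16 alternatives that gave it a value, *Tab3* did not pass the threshold, and after centring on genes of like length the difference was -0.34 (adjusted p = 0.131, limma). Its reads were chosen by weight among 722 matching combinations at a mean of 443, so they are not secure. With a search tolerance 4 times wider the reads of *Tab3* were not obtained.

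Of the other 11 kinases and ubiquitin ligases, 3 were tested and did not pass. By the authors' values *Tab2* was 3864 in wild-type and 3456 in Npffr1-KO, *Irak1* was 3102 and 3018, and *Map3k7*, which encodes TAK1, was 2051 and 1962. Of the other adaptors, *Tirap*, which bridges TLR2 and TLR4 to MyD88, had 524, 479 and 473 normalized reads in wild-type a, b and c against 405, 425 and 391 in Npffr1-KO d, e and f. Its genotypes did not overlap, but the log2 difference of -0.27 did not pass the threshold (adjusted p = 0.195, limma). *Ticam1*, the adaptor of TLR3, was listed at 486 in wild-type and 569 in Npffr1-KO, and *Pik3ap1* at 317 and 357.

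For the receptors of the interleukin-1 family, which also signal through MyD88, 4 of 5 genes were tested. All 4 differences were below 0, where 3798 of all 7319 genes tested were. *Il1rl1*, the receptor for interleukin-33, had 319, 347 and 314 normalized reads in wild-type and 190, 240 and 231 in Npffr1-KO. The genotypes did not overlap, and the log2 difference of -0.57 ± 0.16 (SE) came close to the threshold without passing it (adjusted p = 0.055, limma), while 4 of 18 alternatives put it past, with adjusted p from 0.024 to 0.278 over the 18. *Il1rap* differed by -0.34 (adjusted p = 0.332, limma), and *Il1r1* was listed at 1475 in wild-type and 1374 in Npffr1-KO.

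Of the targets that Toll-like receptors induce, 8 of the 10 listed were higher in the authors' Npffr1-KO value, where 9996 of all 19831 genes were. None of the 6 tested passed the threshold of limma, with or without voom weights, and 1 had an unadjusted p under 0.05, where 18.3% of all genes tested did. *Tnf*, the inflammatory cytokine, had 135, 203 and 135 normalized reads in wild-type and 290, 204 and 206 in Npffr1-KO. The genotypes did not overlap by a narrow margin, and the log2 difference was 0.57 ± 0.21 (SE, adjusted p = 0.148, limma). *Nfkbiz*, a regulator of NF-κB targets, was listed at 453 in wild-type and 721 in Npffr1-KO, and *Cxcl1*, a neutrophil chemokine, at 87.1 and 209, without reads per library. The genes for folding and transport of the receptors had no reads either. All 5 were higher in the authors' Npffr1-KO value, with *Hsp90b1* at 9702 and 10997, *Lrrc59* at 3507 and 3644 and *Unc93b1*, which carries TLR7 and TLR9 to endosomes, at 3434 and 3738 in wild-type and Npffr1-KO. Among inhibitors *Tollip* (1500 and 1471), *Cyld* (1028 and 1136) and *Tnfaip3* (886 and 1123) had authors' values only, and of the 2 tested none passed, with 1 at an unadjusted p under 0.05, against the same 18.3% of all genes. Among co-receptors *Cd36* was listed at 44956 and 36005, *Lbp* at 2386 and 2558 and *Ly86* at 806 and 1119, and neither of the 2 tested passed. No test across the genotypes could be made for genes with the authors' values only.

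Of the 48 cell type markers, 11 were tested and none passed the threshold of limma, with or without voom weights. At an unadjusted p of 0.05, 1 of the 11 did, as 18.3% of all genes tested did. The summed levels of neutrophil markers with reads, which cover all 5 listed, lay between 340 and 466 in wild-type and between 303 and 468 in Npffr1-KO. The authors' values of the 3 endothelial markers summed to 43777 in wild-type and 34762 in Npffr1-KO, those of the 6 adipocyte markers to 228998 and 253256, and those of the 4 adipocyte progenitor markers to 303413 and 237234. Most of the progenitor sum was the collagen gene *Col1a1*, at 297042 in wild-type and 231621 in Npffr1-KO. Of the 4 progenitor markers, 1 was higher in Npffr1-KO. Skeletal muscle markers summed to 203 and 461 and those of keratinocytes to 7.94 and 8.67. By reads, the sum of the keratinocyte markers ranged from 0 to 16.9 in wild-type and from 1.01 to 30.8 in Npffr1-KO. It was highest in wild-type c and Npffr1-KO d, which held nearly all of these reads. The part of all these markers in the levels of the receptors was not tested.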

How the data were processed

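The 6 samples of iAT (3 wild-type, 3 Npffr1-KO) were sequenced as total RNA, and groups were taken from the labels. The labels name Bowtie2, RSEM and DESeq2, without versions. No source used here gives the genome build or annotation. The deposited table lists a signal per gene and genotype, which the authors made from read counts divided by size factors, and other columns hold gene length in bases, as deposited, and the authors' fold changes and p-values, which were not used. The ratio of the 2 genotype values carries the authors' fold change, and it served as 1 constraint in the search for reads. A second table repeats 90 of the genes with the same values and was not used.

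Genes with a single read (585) fell on 6 values, which gave the size factors and, from the higher column, the genotype of each library. Whole reads were then searched within 2 printing errors of the mean. Up to a mean of 20 every combination was searched. Above it, only combinations within a set distance of equal levels in all libraries were searched. Up to a mean of 700 a combination was accepted with 99% of the weight. Above a mean of 20, its ratio and its spread also had to lie within set limits of the fitted model. Genes outside these limits have no reads and are not among the genes tested. Reads were obtained for 11837 of 12939 genes with a mean of up to 700, and for 62.1% of those between 400 and 700. As planned, only single matches were to be kept. The weighted match, the upper mean and the form of the weight were chosen after the data were seen, and other upper means were tried first. A count test was not used because no file holds counts. limma 3.58.1 (R 4.3.3) with an intensity trend was fitted to log2(normalized count + 1) for the 7319 genes with reads and a mean of at least 10, with Benjamini-Hochberg adjustment over all of them and a threshold of 0.05. Both steps were tested on simulated data. There limma missed many moderate changes, so a gene that did not pass is not shown to be unchanged, and the genotype ratios were drawn from the model fitted here, so the form of the weight was not tested.

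The genes and lists were chosen with earlier results of these data known. All 10 genes are named, and from the lists of pathway genes and markers those past the threshold and up to 3 per role with the highest wild-type value. *Xist* and the Y-linked genes fall outside this rule and were named after their values were seen, and genes that overlap a receptor or *Myd88* were named for their position. Sequences were read from GENCODE M21 transcripts with Python 3.11.15 and Biopython 1.88. Alternatives were other pseudocounts, minimums, scalings, tests, lengths, tolerances and leaving out each library.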

Additional observations from a re-analysis of the deposited data

How the results depend on the processing

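The number of genes past the threshold, 211 as reported, was 127 with no minimum mean, 136 after centring on genes of like length and 87 with genes up to a mean of 400, an alternative chosen after the data were seen. Leaving out 1 library at a time gave between 25 and 341. In the other settings (10 counting 1 library left out) it stayed within 1.5 times. For *Tlr1* the log2 difference was 0.38 in the settings that ended the call, no minimum and genes up to a mean of 400, and it lay between 0.32 and 0.44 with 1 library left out; 11 of 17 alternatives kept it past the threshold, with adjusted p from 0.027 to 0.214. No other receptor passed in any alternative. The direction turned for *Tlr4* after centring on length (0.026), for *Tlr7* without Npffr1-KO d (differences from -0.29 to 0.015 with 1 library left out), for *Tlr8* without wild-type a (from -0.0086 to 0.19) and for *Tlr9* without wild-type c or Npffr1-KO f (from -0.40 to 0.23). The order of the levels moved for 5 genes when not divided by length, for 4 in Npffr1-KO, for 6 with GENCODE M21 lengths and for up to 2 (lowest 0) with 1 wild-type library left out. With single matches only, as first planned, 2 of the 10 genes have reads. *Tlr1* has no value with the wider tolerance, nor *Tlr6* with a minimum mean of 50. The 2 genes with genotypes apart stayed 2 at that minimum, where 25.2% of genes were apart. Above a mean of 400 reads were obtained for 62.1% of genes, with a weight that used the spread and the ratio of the genotype values. Above 700 no spread was obtained. No paired analysis was possible because the libraries could not be tied to the replicate numbers of the labels.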
